A study of Homo sapiens with 12 samples.

Results

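The snoRNA host noncoding genes are long noncoding genes whose introns carry small nucleolar RNAs. They were taken as all genes with a symbol of SNHG followed by digits only, together with GAS5, ZFAS1, DANCR and EPB41L4A-AS1, matched by Ensembl identifier. The rule matched 32 symbols, and 31 of them were found among the 63677 identifiers of the expression table, while SNHG4 was not analysed here. Reads were seen for 29 of the 31 genes, and 26 passed the filter on low values and entered the tests, out of 15247 genes tested in all.

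The study asked how CR3, named in its title as a peptide that perturbs condensates, alters gene expression in HCT116 cells, a human colorectal cancer line. PolyA RNA was sequenced from 12 libraries, with 3 libraries each of cells carrying CR3, scramble, reverse or mCherry. All cells, controls included, had been given doxycycline to switch on the construct (1 ug/ul in the labels' wording, at a time stated as 48 without a unit ahead of extraction), and the design text calls the cells clones without saying how many clones each group represents. The labels give no sequence for CR3, scramble or reverse and do not say whether the replicates came from separate cultures, so p-values measure only the spread between these libraries. The constructs themselves were not measured here, so their expression gives no check of the labels.

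Most human snoRNAs are not transcribed on their own but are released from introns once the host transcript has been spliced. Box C/D snoRNAs guide ribose methylation and box H/ACA snoRNAs guide pseudouridylation, mainly of ribosomal RNA, while scaRNAs guide the same changes on spliceosomal RNAs in Cajal bodies. The spliced exons of the noncoding hosts code for no conserved protein. Several of them, GAS5 and SNHG1 among the best studied, begin with a tract of pyrimidines like the messenger RNAs of ribosomal proteins, are bound by ribosomes and are removed by nonsense-mediated decay, the pathway that degrades transcripts with early stop codons. SNHG1, ZFAS1, GAS5 and DANCR have also been studied as long noncoding RNAs in colorectal cancer.

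RefSeq places 149 guide RNA genes inside 30 of the 31 hosts, of which 84 lie in SNHG14 and 65 in the others. By their names 121 are box C/D, 20 are box H/ACA and 4 are scaRNAs. GAS5 carries 11, SNHG1 carries 9, SNHG17 carries 5 and SNHG12 carries 4, while each of the remaining hosts has 3 or fewer. SNHG29, ZFAS1 and SNHG16 carry 3 each, all box C/D (SNORD49A, SNORD49B and SNORD65 in SNHG29).

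The windows around the RefSeq transcription starts are shown because the pyrimidine tract is the sequence feature known to mark this family. Each window holds 20 bases before the start and 20 bases from it, on the strand of the gene in build GRCh38.p14. Capitals mark a run of 5 or more C or T that begins within 5 bases of the start. The first 8 windows belong to hosts that were lower in CR3 than in each of the other groups and have such a run.
SNHG12 at chr1:28581854-28581893 (minus strand): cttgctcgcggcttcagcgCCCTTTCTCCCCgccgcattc
SNHG16 at chr17:76557744-76557783 (plus strand): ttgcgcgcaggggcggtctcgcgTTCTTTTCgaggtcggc
SNHG32 at chr6:31834896-31834935 (plus strand): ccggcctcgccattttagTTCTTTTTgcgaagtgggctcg
SNHG1 at chr11:62855866-62855905 (minus strand): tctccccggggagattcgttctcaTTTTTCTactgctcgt
ZFAS1 at chr20:49278622-49278661 (plus strand): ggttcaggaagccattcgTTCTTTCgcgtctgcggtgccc
SNHG3 at chr1:28505923-28505962 (plus strand): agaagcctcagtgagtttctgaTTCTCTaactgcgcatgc
SNHG7 at chr9:136728165-136728204 (minus strand): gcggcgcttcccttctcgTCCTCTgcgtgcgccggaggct
DANCR at chr4:52712374-52712413 (plus strand): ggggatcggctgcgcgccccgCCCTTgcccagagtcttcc

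The next 2 windows belong to hosts that were also lower in CR3 but have no run of that length at the RefSeq start, and the last belongs to SNHG5, which has a run and was not called in any comparison. For GAS5 the annotations differ, GENCODE 29 placing the start at chr1:173868882, downstream of the RefSeq one. Its window may therefore not hold the tract for which GAS5 is known. The GENCODE 29 start also lay outside the printed window for SNHG12 (chr1:28583132), SNHG32 (chr6:31834608), ZFAS1 (chr20:49278178), SNHG29 (chr17:16438822), SNHG1 and SNHG3. For these hosts the presence or absence of a run applies to the RefSeq start only.
SNHG29 at chr17:16438967-16439006 (plus strand): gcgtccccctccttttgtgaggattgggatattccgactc
GAS5 at chr1:173869026-173869065 (minus strand): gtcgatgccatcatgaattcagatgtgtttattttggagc
SNHG5 at chr6:85678714-85678753 (minus strand): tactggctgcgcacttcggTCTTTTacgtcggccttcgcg

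A run of 5 or more C or T on the gene's strand at this place was found in 16 of the 27 hosts with a RefSeq window (59.3%), against 24.3% of all 35116 gene starts in the same table. The motif CACGTG, the E-box core that reads the same on both strands, was found in 2 of the 27 windows of 300 bases (7.41%), against 7.26% of all windows. Of the hosts tested, 14 had a run and 8 of these were lower in CR3 than in each of the other groups (11.4% of all genes tested). The 14 had a median log2 fold change against mCherry of -0.33. Another 8 had a shorter run or none, and 2 of these, SNHG29 and GAS5, were lower, with a median of -0.12. SNHG6, SNHG9, SNHG15 and SNHG25 were tested but had no RefSeq window and are in neither set. SNHG6 and SNHG25 were among the hosts lower in CR3 than in each of the other groups. In the set with a shorter run or none, SNHG10, SNHG11, SNHG20, SNHG21 and SNHG30 had a mean under 200 normalized reads. In the set with a run, SNHG19, SNHG26 and SNHG31 did. Of all genes tested, 1.77% were lower than in each of the other groups at that level and 16.4% at 200 or more. The sets thus differ in abundance, and the difference between them was not tested.

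Values are normalized reads, the read count of a gene divided by a size factor of the library. Across the 12 libraries the totals ranged from 17431385 to 23566030 reads. Identifiers with a read numbered 22849 to 23667 in the CR3 libraries and 21451 to 22357 in the 9 others. Of 12 markers of colorectal epithelium, 8 had a group mean of 10 normalized reads or more in every group. All 12 summed to 46003 to 53281 in CR3 libraries and 55504 to 63188 in the others. Called lower in CR3 than in every other group were 4, and none was called higher. EPCAM averaged 4311 normalized reads in CR3 and 5043 to 5117 in the other groups, and CDX1 had under 1 in each group. Not all epithelial markers fell. CDH1 averaged 2564 in CR3 and 2427 to 2773 elsewhere, and CDX2 averaged 341 in CR3 and 314 to 360 elsewhere. At low levels, LGR5 averaged 8.34 in CR3 and 0 to 1.27 elsewhere, and CEACAM5 averaged 6.13 in CR3 and 0.3 to 2.32 elsewhere. Some markers of other cells were higher in CR3. The 12 mesenchymal markers summed to 3222 to 3542 in CR3 libraries and 1495 to 1887 in the others, with 5 higher than in every other group, among them VIM at 764 in CR3 and 64.8 to 97.4 elsewhere. The 10 markers of embryonic kidney lines or neurons found in the table summed to 1838 to 2042 in CR3 libraries and 637 to 766 in the others, with 4 higher, among them IRS4 at 549.8 in CR3 and 1.29 to 4.7 elsewhere, while PAX8 was at 93.2 in CR3 and 114 to 141 elsewhere and GNG4 at 187 in CR3 and 201 to 217 elsewhere. The 8 blood markers summed to 1316 to 1432 in CR3 libraries and 19.3 to 37.3 in the others, nearly all of it LAPTM5 (1326 in CR3 and 0.356 to 1.54 elsewhere), while PTPRC had no read. These marker shifts moved with the host genes described here, and their part in the results was not tested.

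In CR3 the noncoding hosts were lower as a group, and no host was called higher. Against mCherry 13 of the 26 hosts tested fell, or 50%, where 14.7% of all genes tested did, and none was called higher (14.1% of all genes). Against scramble 16 fell (19% of all genes) and none was called higher (19.2%), and against reverse 13 fell (17% of all genes) and none was called higher (17%). The count of 0 higher was the same with voom weights, and SNHG30, against mCherry, was the one host above 0 at an unadjusted p below 0.05. The median log2 fold change of the 26 hosts was -0.32 against scramble, -0.27 against reverse and -0.26 against mCherry, where the medians of all genes were 0.01, 0.01 and 0.00. Calls are from limma at a Benjamini-Hochberg adjusted p below 0.05, and the 3 comparisons share the CR3 libraries.

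Lower in CR3 than in each of the other groups were 12 hosts (11.4% of all genes tested), namely SNHG29, SNHG6, SNHG32, ZFAS1, SNHG1, SNHG16, SNHG25, GAS5, SNHG12, DANCR, SNHG3 and SNHG7. None was higher than all 3 (11%). For 11 of these, SNHG25 being the exception, every CR3 library lay below all 9 others (13.6% of all genes tested), and no host had all CR3 libraries above the others (13.8%). Genes with many reads are called more often, so the share was also read by level. Of the 16 hosts with a mean of 200 normalized reads or more, 11 were lower than in every other group (16.4% of genes at that level), and of the 10 below it only SNHG25 was (1.77%). In these bulk libraries fewer cells making a transcript and less of it per cell cannot be told apart.

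**Figure D1:**
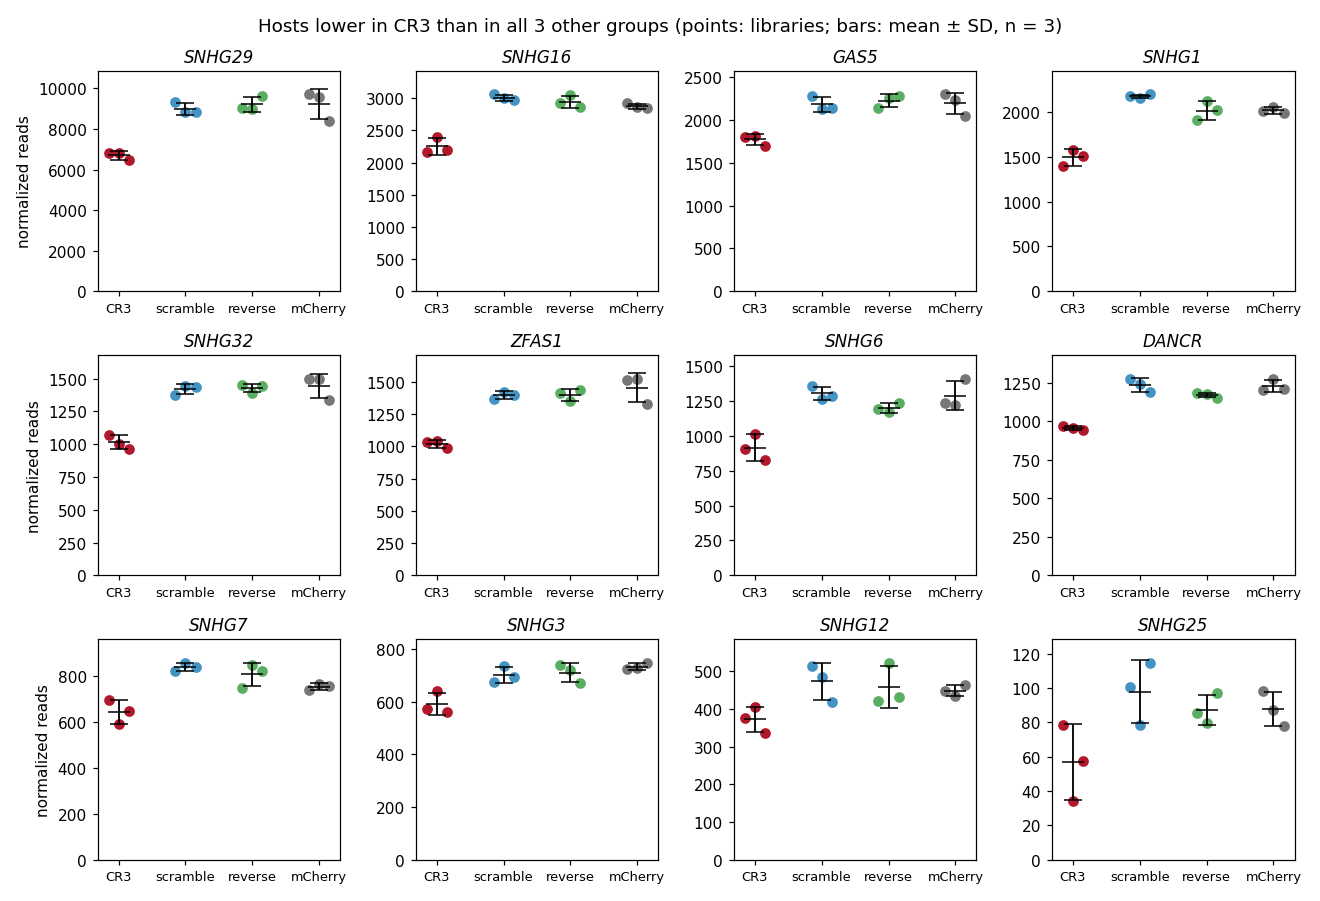
Normalized reads (y axis, from 0) of the 12 hosts lower in CR3 than in each of the other groups, by group (x axis); points are libraries, bars the mean ± SD of 3 libraries. The CR3 points lie below every other point in each panel except SNHG25, where the highest CR3 library reached 78.5 and the lowest mCherry library 77.9.

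Most of the largest decreases were those of box C/D hosts. SNHG29, listed as LRRC75A-AS1 in GENCODE 29, had 6833, 6826 and 6454 normalized reads in the CR3 libraries, against 9342, 8831 and 8814 in the scramble, 9053, 8959 and 9629.6 in the reverse and 9700.5, 9597 and 8375 in the mCherry libraries. Every CR3 library was below every other library, and the other 3 groups overlapped. Its log2 fold change was -0.42 against scramble (adjusted p = 1e-05), -0.46 against reverse (adjusted p = 4.78e-06) and -0.46 against mCherry (adjusted p = 5.5e-06), each with a standard error of 0.055. SNHG6, host of SNORD87, had 909, 1014 and 824 normalized reads in the CR3 libraries, against 1360.0, 1264 and 1288 in the scramble, 1190.5, 1169.8 and 1237 in the reverse and 1234, 1221 and 1410.4 in the mCherry libraries. The CR3 libraries were again all below the rest, the third being the lowest of the 12. The fold changes were -0.51 against scramble (adjusted p = 2.64e-05), -0.39 against reverse (adjusted p = 0.000428) and -0.49 against mCherry (adjusted p = 5.31e-05), with a standard error of 0.072.

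SNHG32, host of SNORD48 and SNORD52 and annotated as the protein-coding gene C6orf48 in GENCODE 29, had 1072, 1004 and 965 normalized reads in the CR3 libraries, against 1377, 1446 and 1439 in the scramble, 1449.8, 1391 and 1445 in the reverse and 1499.9, 1496 and 1338 in the mCherry libraries. All CR3 libraries were lower than all others, by 28.7% relative to scramble, 29% relative to reverse and 29.8% relative to mCherry, with adjusted p = 3.35e-06, 3.21e-06 and 2.61e-06 in that order. ZFAS1, which carries the SNORD12 family and starts beside ZNFX1, had 1032, 1043 and 987 normalized reads in the CR3 libraries, against 1367, 1426 and 1403 in the scramble, 1413, 1351 and 1437 in the reverse and 1518, 1527 and 1327 in the mCherry libraries. The groups outside CR3 overlapped one another, and none reached down to the CR3 libraries. The log2 fold change was -0.45 against scramble (adjusted p = 8.22e-06), -0.46 against reverse (adjusted p = 9.03e-06) and -0.51 against mCherry (adjusted p = 2.8e-06), with a standard error of 0.057.

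SNHG1, whose introns carry SNORD22 and SNORD25 to SNORD31, had 1397, 1582 and 1511 normalized reads in the CR3 libraries, against 2175, 2162 and 2198 in the scramble, 1910.2, 2124 and 2019 in the reverse and 2013, 2061 and 1985 in the mCherry libraries. CR3 was lowest in every library, and scramble was above reverse and mCherry in every library. The decrease was 31.4% relative to scramble (adjusted p = 3.71e-07), 25.8% relative to reverse (adjusted p = 6.36e-06) and 26% relative to mCherry (adjusted p = 6.78e-06). SNHG16, host of the SNORD1 family, had 2161, 2404 and 2188 normalized reads in the CR3 libraries, against 3058, 2996 and 2964 in the scramble, 2922, 3048 and 2870.2 in the reverse and 2917, 2859.9 and 2846 in the mCherry libraries. No CR3 library came within the range of another group. Its log2 fold change was -0.42 against scramble (adjusted p = 1.98e-06), -0.39 against reverse (adjusted p = 5.22e-06) and -0.35 against mCherry (adjusted p = 1.74e-05), with a standard error of 0.047.

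SNHG25, the host of SNORD104 and the shortest of the 12, had 78.5, 34.2 and 57.4 normalized reads in the CR3 libraries, against 101, 78.5 and 115 in the scramble, 85.4, 79.8 and 97.1 in the reverse and 98.2, 87.5 and 77.9 in the mCherry libraries. CR3 library 1 lay within the range of mCherry and just below the lowest scramble library, while the other two CR3 libraries were below all. The log2 fold change was the largest among the hosts tested and also among the least precise, -0.84 against scramble (adjusted p = 0.00898), -0.69 against reverse (adjusted p = 0.0308) and -0.69 against mCherry (adjusted p = 0.0341), with a standard error of 0.234. Without CR3 library 2 it was -0.38 against mCherry (adjusted p = 0.172) and -0.37 against reverse (adjusted p = 0.155). Over all 24 alternatives the adjusted p against mCherry ranged from 0.00185 to 0.172, and that against reverse from 0.00162 to 0.155. The loss of the call against mCherry also came without CR3 library 3 (adjusted p = 0.051), mCherry library 1 (0.109) or mCherry library 2 (0.0696), and against reverse without reverse library 1 (0.0644) or 3 (0.0974).

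GAS5 and SNHG12 carry guide RNAs of both kinds. GAS5, first known for its accumulation in growth-arrested cells, had 1806, 1821 and 1704 normalized reads in the CR3 libraries, against 2285, 2130.5 and 2137 in the scramble, 2142, 2255 and 2283 in the reverse and 2301, 2233 and 2055 in the mCherry libraries. All CR3 libraries were below all others. The log2 fold change was -0.30 against scramble (adjusted p = 0.000256), -0.33 against reverse (adjusted p = 0.000126) and -0.30 against mCherry (adjusted p = 0.000285), with a standard error of 0.053. SNHG12 had 376, 404 and 337 normalized reads in the CR3 libraries, against 514, 486 and 419 in the scramble, 419.7, 523 and 432 in the reverse and 447, 435 and 464 in the mCherry libraries. CR3 library 2 and scramble library 3 were the closest, without overlap. The fold change was -0.34 against scramble (adjusted p = 0.0114), -0.30 against reverse (adjusted p = 0.0299) and -0.27 against mCherry (adjusted p = 0.0499), with a standard error of 0.10 in each.

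SNHG12 was thus at the threshold against mCherry, where 7 of the 24 alternatives kept the call and the adjusted p ranged from 0.0255 to 0.209. The value was 0.067 without CR3 library 1, 0.209 without CR3 library 3, 0.0961, 0.0713 and 0.105 without mCherry library 1, 2 and 3, 0.0565 without reverse library 3, and 0.0516 and 0.0622 without scramble library 1 and 2. Against reverse the adjusted p of SNHG12 was 0.135 without CR3 library 3 and 0.164 without reverse library 2, in a range of 0.0139 to 0.164, and against scramble it was 0.0629 without CR3 library 3 and 0.0639 without scramble library 1, in a range of 0.00528 to 0.0639.

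Among the box H/ACA hosts, DANCR, studied as a noncoding RNA that holds back differentiation, had 969.7, 958 and 945 normalized reads in the CR3 libraries, against 1278, 1243 and 1189 in the scramble, 1184, 1176 and 1155 in the reverse and 1206, 1277 and 1209.8 in the mCherry libraries. The CR3 libraries lay close together below all others. The decrease was 22.5% relative to scramble (adjusted p = 1.63e-05), 18.3% relative to reverse (adjusted p = 0.000209) and 22.2% relative to mCherry (adjusted p = 2.6e-05). SNHG3, host of SNORA73A and SNORA73B, had 575, 641 and 563 normalized reads in the CR3 libraries, against 676, 736 and 694 in the scramble, 741, 722 and 673 in the reverse and 727, 728 and 749 in the mCherry libraries. CR3 library 2 came nearest to the other groups but stayed below them. The log2 fold change was -0.24 against scramble (adjusted p = 0.00771), -0.26 against reverse (adjusted p = 0.00526) and -0.31 against mCherry (adjusted p = 0.00187), with a standard error of 0.067.

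SNHG7, host of SNORA17A and SNORA17B, had 693, 590.4 and 646 normalized reads in the CR3 libraries, against 822, 856 and 836 in the scramble, 748, 849 and 820.3 in the reverse and 738, 765 and 754 in the mCherry libraries. The groups did not overlap with CR3, and the gap was smallest towards mCherry. The log2 fold change was -0.38 against scramble (adjusted p = 0.000241), -0.33 against reverse (adjusted p = 0.00121) and -0.23 against mCherry (adjusted p = 0.0166), with a standard error of 0.068. The call of SNHG7 against mCherry was lost without CR3 library 2 (adjusted p = 0.0963) or mCherry library 2 (adjusted p = 0.0535), in a range of 0.00711 to 0.121 over the alternatives.

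**Figure D2:**
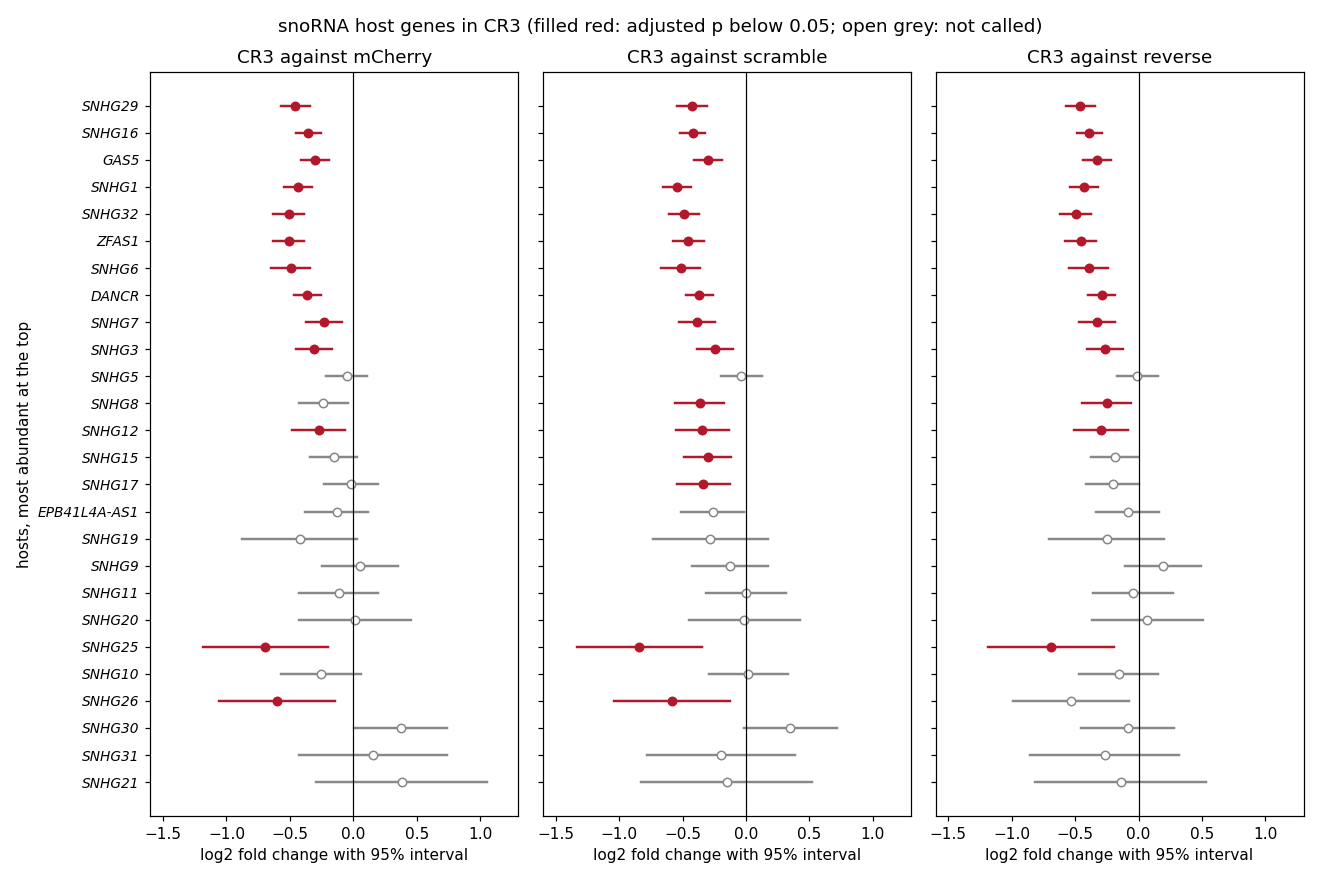
Log2 fold change of CR3 (x axis, with its 95% interval) for each of the 26 hosts tested (y axis, ordered by mean normalized reads) against mCherry, scramble and reverse; filled points passed an adjusted p of 0.05. The filled points all lie below 0 and crowd among the abundant hosts, while SNHG5 sits at -0.05, -0.04 and -0.01 in the panels from left to right.

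Another 4 hosts passed the test in some of the comparisons. SNHG8, host of SNORA24, averaged 446 ± 32.3 normalized reads in CR3, 574 ± 12.8 in scramble, 531 ± 39.9 in reverse and 528 ± 66.2 in mCherry (SD, n = 3 each). It was called against scramble (log2 fold change -0.36, adjusted p = 0.00452) and reverse (-0.25, adjusted p = 0.0428) and missed the threshold against mCherry (-0.24, adjusted p = 0.0638), where mCherry library 3 overlapped with CR3. Without that library the value against mCherry was -0.34 (adjusted p = 0.00404), and without CR3 library 2 it was -0.29 (adjusted p = 0.0388), in a range of 0.00404 to 0.236 over the alternatives. The call of SNHG8 against reverse was kept in 14 of 24 alternatives, with adjusted p from 0.0118 to 0.172. It was lost without CR3 library 1 (0.0671) or 3 (0.166), without reverse library 2 (0.159) or 3 (0.1), and without scramble library 1 (0.0542), 2 (0.0541) or 3 (0.0538).

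SNHG26, host of SNORD93, averaged 51.5 ± 10.9 normalized reads in CR3, 76.8 ± 5.98 in scramble, 75.1 ± 16.2 in reverse and 79.8 ± 22.6 in mCherry. It was called against scramble (log2 fold change -0.59, adjusted p = 0.0422) and mCherry (-0.60, adjusted p = 0.0461) and not against reverse (-0.53, adjusted p = 0.0678). The libraries of CR3 overlapped with those of reverse and mCherry. Of the 24 alternatives, 14 kept the call against scramble (adjusted p 0.0131 to 0.127) and 9 kept that against mCherry (0.0138 to 0.197). Leaving out CR3 library 1 or 3 ended both calls of SNHG26, as did leaving out scramble library 1, 2 or 3 or reverse library 3. Against mCherry the adjusted p was 0.103 and 0.146 without CR3 library 1 and 3, 0.0551, 0.0542 and 0.0559 without scramble library 1, 2 and 3, 0.0555 without reverse library 3, and 0.0889 and 0.197 without mCherry library 2 and 3. Against scramble it was 0.0959 and 0.127 without CR3 library 1 and 3, 0.111, 0.0557 and 0.101 without scramble library 1, 2 and 3, and 0.0508 without reverse library 3. The missing call against reverse was gained without CR3 library 2 (0.0221), mCherry library 1 (0.0489) or 3 (0.0416), or reverse library 2 (0.0331), in a range of 0.0221 to 0.248.

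SNHG15 and SNHG17 passed the test against scramble but against neither other group. SNHG15, host of SNORA9, averaged 345 ± 11.6 normalized reads in CR3, 425 ± 31.5 in scramble, 393 ± 25.5 in reverse and 384 ± 34.5 in mCherry, with a log2 fold change of -0.30 against scramble (adjusted p = 0.012), -0.19 against reverse (adjusted p = 0.113) and -0.15 against mCherry (adjusted p = 0.214). The call was lost without scramble library 3 (adjusted p = 0.0623, in a range of 0.00648 to 0.0653). SNHG17, host of the SNORA71 family, averaged 216 ± 14.1 in CR3, 272 ± 14.2 in scramble, 248 ± 9.35 in reverse and 219 ± 21.5 in mCherry, with -0.34 against scramble (adjusted p = 0.0131), -0.20 against reverse (adjusted p = 0.125) and -0.02 against mCherry (adjusted p = 0.92). It was lost without CR3 library 3 (0.0636) or scramble library 2 (0.0545), in a range of 0.00909 to 0.0636. In SNHG17 the mCherry libraries overlapped with those of CR3, and the scramble mean was the highest. Scramble was not called against mCherry (adjusted p = 0.129) or against reverse (adjusted p = 0.798), where the libraries overlapped.

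The remaining 10 hosts tested were called in no comparison. SNHG5, host of SNORD50A and SNORD50B, averaged 542 ± 41.4 normalized reads in CR3, 557 ± 38.7 in scramble, 546 ± 35.7 in reverse and 561 ± 2.64 in mCherry, and its libraries overlapped between all groups. Its log2 fold change had a 95% interval of -0.20 to 0.12 against scramble, -0.17 to 0.15 against reverse and -0.21 to 0.11 against mCherry. These intervals leave out the values of SNHG29, SNHG32, ZFAS1 and SNHG1, and with a mean of 552 normalized reads SNHG5 stood between SNHG12 at 438 and SNHG3 at 685. SNHG5 was picked out after its values were seen.

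EPB41L4A-AS1, host of SNORA13, averaged 196 ± 6.63 normalized reads in CR3, 238 ± 38.1 in scramble, 208 ± 8.99 in reverse and 215 ± 17.8 in mCherry. Its fold change of -0.26 against scramble missed the threshold (adjusted p = 0.0908) and was called only without scramble library 1 (-0.40, adjusted p = 0.0113, in a range of 0.0113 to 0.292). SNHG19, host of SNORD60, had a fold change of -0.42 against mCherry (adjusted p = 0.159), which was called without CR3 library 1 (-0.60, adjusted p = 0.0392) or mCherry library 3 (-0.70, adjusted p = 0.00808), in a range of 0.00808 to 0.506. SNHG9, SNHG10, SNHG11, SNHG20, SNHG21, SNHG30 and SNHG31 averaged 10.3 to 128 normalized reads over the 12 libraries, with standard errors of 0.142 to 0.319. Their fold changes against mCherry lay between -0.26 for SNHG10 and 0.38 for SNHG21, and in none of them was a change called under any alternative.

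SNHG28 had 4.2 to 21.5 normalized reads per library and was left out because the place of the decimal mark was ambiguous in its values. SNHG14, the imprinted host of the SNORD115 and SNORD116 clusters, had 5 reads in all and SNHG22 had 3, both under the filter. SNHG18 and SNHG27 had no read in any library.

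Read by the guide RNAs they carry, 7 of the 11 hosts tested with box C/D guides alone were lower than in every other group. Of all genes tested 11.4% were. The median log2 fold change of these 11 hosts was -0.46 against mCherry. Of the 10 with box H/ACA guides alone 3 were lower, with a median of -0.14. Both hosts that carry the 2 kinds were lower, and none of the 3 scaRNA hosts, SNHG10, SNHG20 and SNHG21, was. All 3 scaRNA hosts had a mean under 200 normalized reads, where 1.77% of genes tested were lower. The classes differ in abundance, and the difference between them was not tested.

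Summed over all 31 hosts, the host RNA made up 20318, 20852 and 19539 normalized reads in the CR3 libraries, against 27011, 26559 and 26365 in the scramble, 25812, 26427 and 26753 in the reverse and 27173, 27039 and 25076 in the mCherry libraries. The CR3 sums were all below the others, whose groups overlapped. As a share of the reads of the library this was 0.106% to 0.112% in CR3, against 0.132% to 0.136% in scramble, 0.131% to 0.136% in reverse and 0.127% to 0.138% in mCherry. SNHG29 was the largest single item, and without it the sums were 13085 to 14025 in CR3, against 17551 to 17728 in scramble, 16759 to 17468 in reverse and 16702 to 17473 in mCherry.

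**Figure D3:**
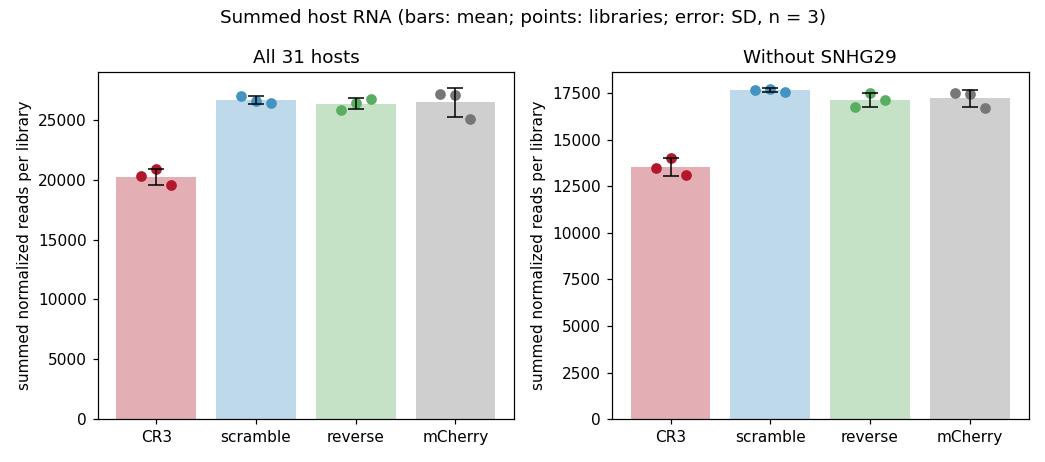
Summed normalized reads per library (y axis, from 0) of all 31 hosts (left) and without SNHG29 (right), by group (x axis); bars are means, points libraries and error bars the SD of 3 libraries. The CR3 sums of 19539 to 20852 lie below all 9 other libraries, and the gap remains in the right panel.

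Per kilobase of exon, the scale on which hosts can be set against each other, SNHG29 stood first with a mean of 2270.4 normalized reads per kb over the 12 libraries, its libraries ranging from 1717 to 2581. SNHG6 followed with 944 (661 to 1131) and SNHG32 with 737 (536 to 833). Within each of the 12 libraries SNHG29 was above SNHG6 and SNHG6 above SNHG32. Then came ZFAS1 with 588, GAS5 with 577, SNHG8 with 563, SNHG16 with 517, SNHG1 with 513 and DANCR with 503, whose ranges over the 12 libraries overlapped. At the low end SNHG20, SNHG31 and SNHG21 were under 20 per kb. SNHG5 stayed at 193 per kb in CR3, 198 in scramble, 195 in reverse and 199.9 in mCherry.

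Between the groups without CR3 no host was called. In scramble against mCherry 0 of 26 hosts passed (1.55% of all genes tested were called in either direction), in reverse against mCherry 0 (0.643%) and in reverse against scramble 0 (0.446%). Fits with voom weights also gave 0 in each. At an unadjusted p below 0.05 there were 2 hosts in the first comparison (14.7% of all genes), SNHG17 and SNHG7, both higher in scramble. There was 1 in the second (9.64% of all genes), SNHG30, higher in reverse, and there were 3 in the last (7.25% of all genes), with SNHG30 higher and SNHG1 and SNHG9 lower in reverse. SNHG17 averaged 272 ± 14.2 normalized reads in scramble and 219 ± 21.5 in mCherry, a log2 fold change of 0.32 with a 95% interval of 0.11 to 0.53 (adjusted p = 0.129). SNHG30 averaged 71 ± 10.3 normalized reads in reverse and 51.1 ± 1.96 in mCherry (log2 fold change 0.46, adjusted p = 0.406). The median fold change of the 26 hosts was 0.03, -0.01 and -0.04 in these comparisons, in the order given.

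Guide RNAs themselves are short and lack a poly(A) tail, so a polyA library captures few of them. Of the 149 guide RNA genes inside the hosts 100 were in the table, 20 of these had a read, and together they had 1512 reads over the 12 libraries. SNORD104 inside SNHG25 accounted for 504 of these, with 23, 32 and 26 reads in the CR3 libraries, against 62, 46 and 59 in scramble, 63, 31 and 43 in reverse and 36, 62 and 21 in mCherry. These reads are not scaled and can stem from unspliced host RNA, so the amounts of the mature guide RNAs were not measured.

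Several hosts share a start region with a protein-coding gene on the opposite strand. Such a neighbour within 1000 bases was found for 8 hosts. ZFAS1 and ZNFX1, an RNA helicase gene whose start lies 248 bases away, moved in opposite directions, since ZNFX1 averaged 2993 ± 110 normalized reads in CR3, against 2674 ± 47.9 in scramble, 2649 ± 85 in reverse and 2568 ± 159 in mCherry and was called higher in each comparison (log2 fold change 0.16, 0.18 and 0.22 against scramble, reverse and mCherry, adjusted p = 0.0164, 0.0114 and 0.00274). SLC3A2, the amino acid transporter chain gene 188 bases from SNHG1, averaged 3928 ± 179 in CR3, against 4493 ± 39.6 in scramble, 4171 ± 205 in reverse and 3922 ± 85.4 in mCherry and passed the test against scramble but not against reverse or mCherry (log2 fold change -0.19, adjusted p = 0.00295). ZBTB37, a zinc finger gene 800 bases from GAS5, averaged 429 ± 65.1 in CR3, against 421 ± 40.5 in scramble, 488 ± 14.1 in reverse and 439 ± 78 in mCherry and was not called in any comparison. Among the other 5 pairs, TRAF7 beside SNHG19 and RPS2 beside SNHG9 were lower in CR3 than in every other group while their hosts were not called.

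How the counting treated strand is not given in the sources used here, and reads of overlapping genes may therefore be shared. Of the exon bases of the 12 hosts, other genes on the opposite strand covered 30.6% in SNHG16, 29.3% in SNHG6, 26.1% in ZFAS1, 25.2% in SNHG7 and 12% or less in the others, and genes on the same strand covered 23.2% in SNHG32, 16.9% in ZFAS1 and 5.92% in SNHG3. These shares count the exons of other genes and leave out guide RNA genes. Counted so, SNHG1 and SNHG25 overlapped with no other gene.

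Genes for the proteins that package snoRNAs were lower in CR3 or not called. For scale, 11.4% of all genes tested were lower in CR3 than in each of the other groups and 11% were higher. At a mean of 200 normalized reads or more, 16.4% were lower. Whether a gene list differed from these shares was not tested. Of 21 genes tested for the proteins of snoRNA particles and their assembly, 9 were lower than in each of the other groups and none was higher, with a median log2 fold change of -0.15 against mCherry, -0.30 against scramble and -0.22 against reverse. FBL, the methyltransferase of box C/D particles, averaged 2568 ± 13.1 normalized reads in CR3, against 3879 ± 211 in scramble, 3685 ± 158 in reverse and 3426 ± 112 in mCherry. NOP56, a core protein of the same particles and itself a snoRNA host, averaged 3931 ± 184 in CR3, against 5571 ± 26.5 in scramble, 5159 ± 286 in reverse and 4907 ± 136 in mCherry. Both fell in each comparison with limma, the largest adjusted p being 3.99e-06 for FBL and 6.39e-05 for NOP56.

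Many protein-coding hosts of snoRNAs were lower in CR3 too, where 11.4% of all genes tested were lower than in every other group. Of 25 hosts that are not ribosomal protein genes 17 were lower in CR3 than in every other group and none was higher (median -0.20 against mCherry, -0.31 against scramble and -0.26 against reverse). EEF1B2, a subunit of translation elongation factor, averaged 5868 ± 119 normalized reads in CR3, against 8134 ± 327 in scramble, 7896 ± 112 in reverse and 7749 ± 166 in mCherry, and HSPA9, the mitochondrial chaperone, averaged 9737 ± 381, against 13464 ± 160, 12876 ± 241 and 12183 ± 552 in the same groups. All 23 ribosomal protein genes on the list of hosts were lower than in every other group (median -0.33, -0.34 and -0.32 against mCherry, scramble and reverse). RPSA averaged 11516 ± 287 in CR3, against 17090.0 ± 80.9 in scramble, 16652 ± 385 in reverse and 15880.4 ± 1238 in mCherry. Of 17 other genes whose messenger RNA is known to start with a pyrimidine tract 15 were lower and none was higher (median -0.30, -0.28 and -0.29). PABPC1, the poly(A) binding protein, averaged 35092 ± 1461 in CR3, against 46434 ± 673 in scramble, 46739.6 ± 770 in reverse and 47466 ± 828 in mCherry. The lists share some genes, EEF1B2 and NOP56 among them.

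Genes of nonsense-mediated decay, the pathway known to remove several host RNAs, changed in both directions. Among all genes tested 11.4% were lower and 11% were higher by the same rule, and 16.4% were lower at 200 normalized reads or more. The small counts for factors and substrates were not tested against those shares. Of 17 factors tested 5 were lower and 1 was higher in CR3 than in every other group, with a median of -0.01 against mCherry, -0.08 against scramble and -0.07 against reverse. SMG5, a factor that binds the phosphorylated helicase UPF1, was the one that rose, at 3366 ± 58.8 normalized reads in CR3, against 2973 ± 41.6 in scramble, 2893 ± 77.1 in reverse and 2829 ± 142 in mCherry. EIF4A3, the helicase of the exon junction complex, fell, at 5029.6 ± 129 in CR3, against 6418 ± 167 in scramble, 6041 ± 87.8 in reverse and 6051 ± 186 in mCherry. Of 15 transcripts known as substrates of this decay 4 were lower and 1, SESN2, was higher in CR3 than in every other group (median -0.12 against mCherry, -0.15 against scramble and -0.14 against reverse). SESN2, a stress-induced regulator of growth signalling, averaged 878 ± 62.2 in CR3, against 526 ± 21.9 in scramble, 490.1 ± 33.2 in reverse and 506 ± 18.9 in mCherry.

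Long noncoding RNAs that are not snoRNA hosts showed changes in both directions, as did all genes tested (11.4% lower and 11% higher than in every other group). Of 16 tested 5 were lower and 3 were higher in CR3 than in every other group, with a median of 0.06 against mCherry, 0.16 against scramble and 0.02 against reverse. TUG1 averaged 3968 ± 206 normalized reads in CR3, against 2719 ± 37.8 in scramble, 2725 ± 137 in reverse and 2992 ± 62.5 in mCherry. PVT1 averaged 446 ± 38.5 in CR3, against 657 ± 39.4 in scramble, 693 ± 37.5 in reverse and 619 ± 40.3 in mCherry. TP53TG1 and HOTAIRM1 were the others that rose. HOTAIRM1 averaged 109 ± 17.4 in CR3, against 39.4 ± 7.73 in scramble, 46.8 ± 7.48 in reverse and 51.1 ± 2.24 in mCherry, and TP53TG1 averaged 15.2 ± 4.35 in CR3, with no read in any scramble or reverse library and a mean of 0.561 in mCherry. The difference between these RNAs and the snoRNA hosts was not tested.

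**Figure D4:**
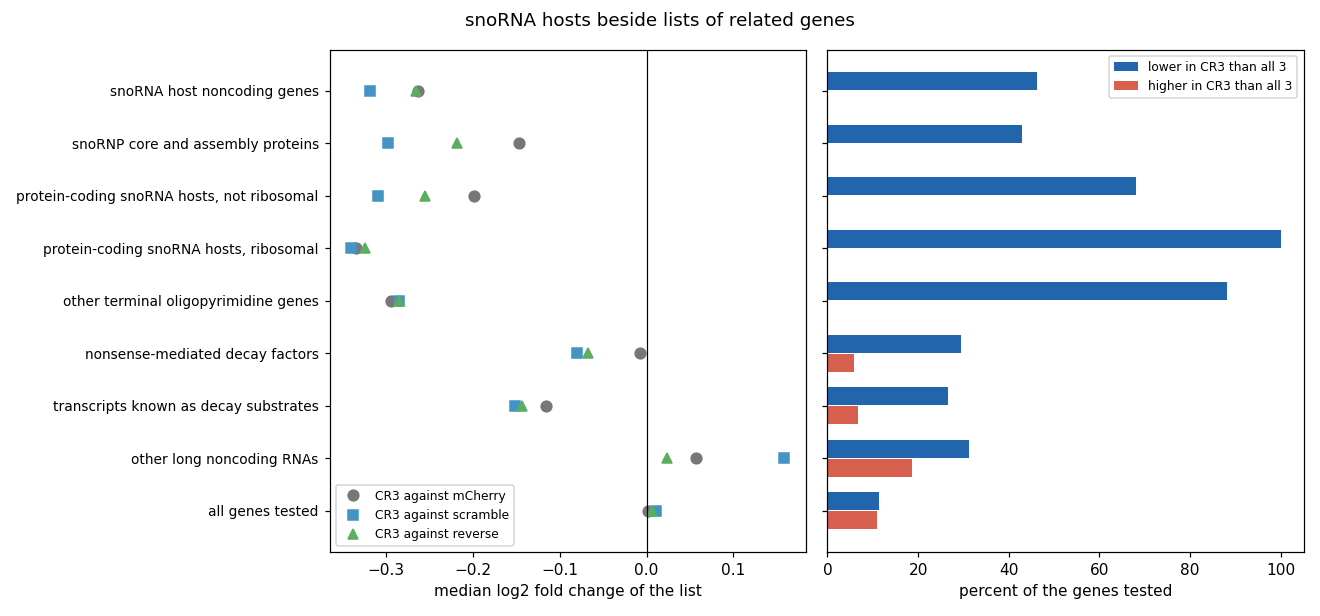
Median log2 fold change of CR3 against mCherry, scramble and reverse (left, x axis) and percent of tested genes lower or higher in CR3 than in each of the other groups (right, x axis, from 0) for the snoRNA hosts, 7 lists of related genes and all genes tested (y axis). The hosts' medians of -0.26, -0.32 and -0.27 lie beside those of protein-coding hosts and other pyrimidine-tract genes, while all genes lie at 0.00 to 0.01.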

How the data were processed

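RNA of 12 libraries (4 groups of 3) was sequenced from poly(A) RNA with a stranded kit, per the labels' protocols. The submitters' processing notes name STAR and featureCounts, further FastQC, Trim Galore, MultiQC, Salmon, GATK, DESeq2 and edgeR, and the build GRCh38; no source used here gives versions or settings. The deposited values are scores: the authors' counts for each gene over a library size factor, with the decimal mark missing from values of 1 or more, as found from the values. Each of the 265152 nonzero cells was a whole multiple of the worth of 1 read at some power of 10 (100% within 1e-07). A likelihood that knew the groups chose the power for each gene, and 99.32% of the cells came out the same without them. In 1922 cells (0.725%) another power lay within a likelihood ratio of 20, and the 1525 genes holding them were left out of the tests. The 18138 cells that had kept the mark were all cells of 1 read, and hiding it gave the right value in 98.42%. That share does not measure cells of many reads. A gene that differed by about 10-fold in 1 group could be misread.

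Tests were limma 3.58.1 in R 4.3.3 on log2(normalized reads + 1) with trended variance, 4 groups, all 12 libraries, at least 10 reads in at least 3 libraries, Benjamini-Hochberg over the 15247 genes tested within each comparison, called under 0.05, two-sided. Fold changes are on this scale and understate those of low genes. The restoration used Python 3.11.15 with numpy 2.4.6, and restoration and test were tested on simulated data. The simulated table gave all genes the same spread and changed 200 genes in CR3. Against mCherry 61.2% of the genes changed 1.25-fold and 95.2% of those changed 1.5-fold were called, as were 13 unchanged genes. A missing call therefore does not exclude a change of 1.25-fold. Symbols, exon lengths and coordinates came from GENCODE 29 (GRCh38) and a gene name table, which paired 52526 identifiers. RefSeq (GRCh38.p14) gave guide RNA positions and promoter sequences. Alternatives covered 3 other scalings, 2 pseudocounts, 2 filters, ambiguous genes kept, powers without group labels, voom weights, fits of only the groups compared, a replicate block and each library left out.

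The members, the gene lists and the tests were chosen with earlier results of these data known. Values in every library are given for hosts called in the same direction against all 3 groups, which include the 3 with the most reads per kb. Other hosts are given by counts, or by means where named. Genes named from a list came from the 4 with the smallest p against mCherry among those called. Not all 4 were given for each list, and RPL12, not given, had a smaller p than RPSA.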

Additional observations from a re-analysis of the deposited data

How the results depend on the processing

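The counts of hosts lower in CR3 stayed within 1.5 times of those reported, and no host called in a comparison changed direction, under any of the 24 alternatives. DANCR, GAS5, SNHG1, SNHG16, SNHG29, SNHG32, SNHG6 and ZFAS1, 8 of the 12 hosts lower than in all 3 groups, were called under every alternative in each of these comparisons. Scaling by library totals put the median log2 fold change of all genes in CR3 against scramble at 0.102, where it was 0.01 as reported, and left 9 hosts lower against mCherry, 11 against scramble, 10 against reverse and 8 against all 3 groups, SNHG12, SNHG25, SNHG3 and SNHG7 being lost. Fits of only the groups compared left 9 against all 3 (without SNHG12, SNHG25 and SNHG7), the looser filter left 10, and voom weights gave 11, 16, 13 and 11. Leaving out one library at a time gave 9 to 13 against mCherry, 13 to 16 against scramble, 11 to 14 against reverse and 9 to 12 against all 3. Hosts higher in CR3, and hosts called between the other groups, numbered 0 under all alternatives. Low read numbers limit the hosts under 200 normalized reads, whose standard errors reach 0.319. The cause of the lost calls was not tested.

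With the replicate number as a block, 12 hosts were lower against mCherry, 15 against scramble, 13 against reverse and 12 against all 3. Same-numbered libraries of different groups had deviations that correlated between -0.129 and 0.070 over 18 pairs, and differently numbered ones between -0.207 and 0.203 over 36. No shared deviation of same-numbered libraries was thus seen. Whether the numbers pair the libraries is not known.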
